A study of Mus musculus with 6 samples.

Results

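The 8 genes described here, Gpr83, Nrp1, Izumo1r, Lrrc32, Ikzf2, Ikzf4, Capg and Swap70, belong to the surface and signature genes by which regulatory T cells are told from other CD4 T cells. They were chosen by name, with earlier results of these data known, as were the gene lists below. Array rows annotated with exactly 1 of these symbols were used, and all 8 were found, each on 1 row, among 19935 named genes. RNA came from CD4+CD62L- T cells that had been sorted from mouse lymph nodes by flow cytometry and had received no treatment. The 3 Dicer WT samples were from control animals that carry the floxed Dicer gene without Cre, and the 3 Dicer KO samples from animals with the same floxed gene plus CD4Cre. CD4Cre acts in all cells that have passed through Cd4 expression, so it is present in regulatory and conventional CD4 T cells alike. Neither age nor strain of the animals is given in the labels. The labels call the cells resting, while absence of CD62L, the lymph node homing selectin, is otherwise used to mark activated, memory and many regulatory T cells. The sort did not separate regulatory T cells, so each value is that of a bulk population, in which fewer cells of this type and less RNA per cell cannot be told apart.

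Regulatory T cells restrain immune responses and depend on the transcription factor Foxp3. Helios (Ikzf2) and the semaphorin and VEGF coreceptor neuropilin 1 (Nrp1) are used as marks of regulatory T cells that arise in the thymus. Eos (Ikzf4) is a corepressor that binds Foxp3. GARP (Lrrc32) holds latent TGF-beta on the surface of activated regulatory T cells. The folate receptor relative Juno (Izumo1r, formerly Folr4) is a surface protein of regulatory T cells and of oocytes, and Gpr83 is a G protein-coupled receptor. Capg caps actin filaments, and Swap70 is a phosphoinositide-binding regulator of Rac signalling that is also abundant in B cells. Mature microRNAs, which Dicer makes, are known to be needed for regulatory T cell development and function.

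The deposited log2 values are centred on each row's median over the 6 arrays, so only differences between arrays can be read, and folds assume that the log base is 2. A row's original level survived only as a coarse class, read from the binary step of its stored numbers. All 8 CD4 T cell markers, among them Cd3e, Cd4 and Cd28, fell in the higher class, which holds 16.4% of all genes. So did the CD8 chain gene Cd8b1 (but not Cd8a), Blk, Ctss, Ccl22 and Pecam1 among the markers of other cell types. The class is thus not limited to T cell genes, and it does not by itself tell CD4 from CD8 T cells. Between genotypes, 2 of the 8 CD4 T cell markers were higher in Dicer KO, Cd4 (0.67 ± 0.074) and Cd2 (0.57 ± 0.064), and 1 was lower, Cd5 (-0.44 ± 0.062). None of the 8 regulatory T cell genes was in the higher class (0 of 8), and neither were Foxp3 and Il2ra. Over all genes, 1184 of 19935 (5.94%) were higher and 557 (2.79%) lower in Dicer KO at a Benjamini-Hochberg adjusted p of 0.05 in limma, 8.73% in either direction, and 26.2% had arrays that did not overlap between genotypes. At an unadjusted p under 0.05 in limma, 2412 of the 19935 genes were higher and 1873 lower. Over all genes, 9016 differences were positive and 10919 negative. Calls were unevenly spread over the level classes: 20.2% of the 3265 genes in the higher class were called higher in Dicer KO (median difference 0.10), and 3.16% of the other 16670 genes (median -0.019). Array values below are given in the order of replicates 1, 2 and 3, which the labels state to be biological replicates. A difference is Dicer KO minus Dicer WT in log2 units, with its standard error.

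Promoter sequences are shown for 3 of the genes: Gpr83 and Capg, which were higher in Dicer KO, and Izumo1r, which is the direct neighbour of Gpr83 on chromosome 9 and did not pass the test. Each is the stretch of 250 bases before the RefSeq transcript start (GRCm38.p6), written 5′ to 3′ on the gene's own strand. The Gpr83 stretch lies at chr9:14859960-14860209 on the plus strand, the Izumo1r stretch at chr9:14903768-14904017 on the minus strand and the Capg stretch at chr6:72549397-72549646 on the plus strand. Capitals mark matches to the E-box CANNTG, the site of E proteins, or to the Runx core TGTGGT, on either strand.
Gpr83: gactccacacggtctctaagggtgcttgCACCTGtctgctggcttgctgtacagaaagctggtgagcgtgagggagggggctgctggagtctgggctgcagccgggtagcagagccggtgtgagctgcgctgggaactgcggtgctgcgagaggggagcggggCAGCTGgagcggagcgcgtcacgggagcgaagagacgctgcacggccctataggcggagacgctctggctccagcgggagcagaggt
Izumo1r: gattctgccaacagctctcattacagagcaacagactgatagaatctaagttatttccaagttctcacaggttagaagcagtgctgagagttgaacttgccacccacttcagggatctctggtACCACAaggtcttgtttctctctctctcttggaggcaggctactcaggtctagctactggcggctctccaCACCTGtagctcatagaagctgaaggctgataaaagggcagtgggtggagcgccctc
Capg: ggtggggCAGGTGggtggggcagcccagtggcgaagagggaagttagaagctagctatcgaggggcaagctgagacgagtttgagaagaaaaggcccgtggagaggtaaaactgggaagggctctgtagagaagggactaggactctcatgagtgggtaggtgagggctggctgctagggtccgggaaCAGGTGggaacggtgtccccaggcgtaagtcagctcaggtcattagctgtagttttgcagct
The Gpr83 stretch holds 2 E-boxes, the Capg stretch 2, and the Izumo1r stretch 1 E-box and 1 Runx core, the latter read on the opposite strand. An E-box is common, being present in 66.2% of 32851 promoter stretches of this length, and the Runx core is present in 14.0%. Other motifs searched on both strands were the TATA box TATAAA (12.4% of stretches), the STAT site TTCNNNGAA (7.02%), the forkhead core TGTTTAC (3.17%), the Ets core CCGGAA (12.0%), the NFAT core GGAAAA (20.4%) and the interferon-stimulated response element core (2.98%). Their letters are in none of these 3 stretches, and none of the matches shown overlap. The stretches differ in base composition, with 66.8% G and C for Gpr83, 57.6% for Capg and 50.0% for Izumo1r, against a median of 52.4% over all stretches. RefSeq promoters were matched for 5 of the 8 genes.

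Of the 8 genes, Gpr83 and Capg were higher in Dicer KO and 0 were lower, and the other 6 did not pass the test, also not at an unadjusted p of 0.05 (0 of 6). These 2 called of 8 stand beside 8.73% called in either direction and 5.94% called higher among all genes, and 3.16% called higher outside the higher level class, where all 8 lie. They were also the 2 genes whose arrays did not overlap, as held for 13.5% of all genes with Dicer KO the higher. The median difference over the 8 was 0.087, against -0.011 over all genes tested. Of the 8 differences 6 were positive, beside 9016 of 19935 over all genes. In order of the difference, Gpr83 (0.92) and Capg (0.76) came first, Ikzf2 (0.32) followed, and Izumo1r, Swap70, Ikzf4, Nrp1 and Lrrc32 lay between 0.089 and -0.067. The 95% intervals of each pair of neighbours in this order overlapped.

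**Figure D1:**
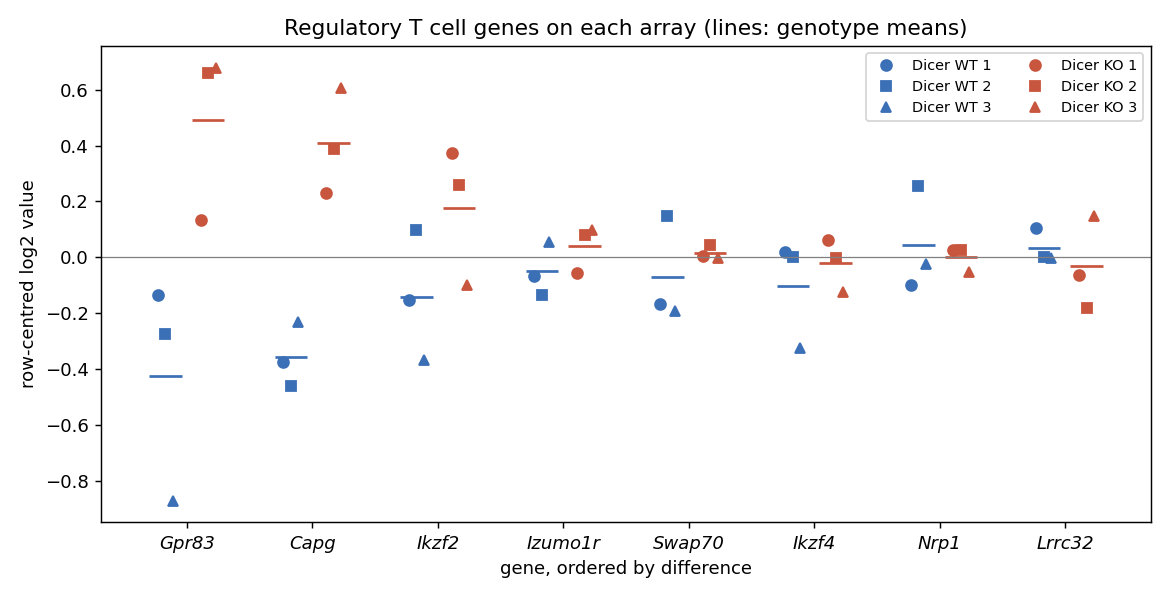
Row-centred log2 values (vertical axis) of the 8 genes, ordered by their difference, on each of the 6 arrays; marker shapes give the replicate number and short lines the genotype means. The 3 Dicer KO arrays lie above the 3 Dicer WT arrays for Gpr83 and Capg, and the genotypes overlap for the other 6 genes.

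Among the surface proteins, the receptor Gpr83 had the largest difference of the 8. It read -0.13, -0.27 and -0.87 in Dicer WT and 0.13, 0.66 and 0.68 in Dicer KO. The genotypes did not overlap, but Dicer WT 3 lay far below the other WT arrays, and Dicer KO 1 lay nearer to Dicer WT 1 than to the other KO arrays. Gpr83 was 1.89-fold higher in Dicer KO (difference 0.92 ± 0.22 SE, n = 3 per genotype, 95% interval 0.40 to 1.43, limma adjusted p = 0.0471). Leaving out Dicer KO 1 kept the call (adjusted p = 0.0341), and leaving out any other array ended it (0.0592 to 0.167). With Dicer WT 3 left out the difference was 0.69.

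Izumo1r read -0.068, -0.14 and 0.056 in Dicer WT and -0.056, 0.080 and 0.096 in Dicer KO. The genotypes overlapped, since Dicer WT 3 read above Dicer KO 1. The difference was 0.089 ± 0.070 (adjusted p = 0.561), and its 95% interval, -0.076 to 0.25, ends below the start of that of Gpr83. No protein-coding gene lies between Gpr83 and Izumo1r in the RefSeq order. Gpr83 minus Izumo1r on the same array was -0.066, -0.14 and -0.93 in Dicer WT and 0.19, 0.58 and 0.58 in Dicer KO. This contrast is 1 of 3 pairs of genes compared. Its exact two-sided permutation test gave p = 0.1, the smallest that 3 against 3 arrays allow, and 0.3 after Benjamini-Hochberg adjustment.

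Neighbours of Gpr83 on chromosome 9 were also measured. Panx1, the pannexin channel gene on the far side of Izumo1r, was higher in Dicer KO by 0.56 ± 0.062 (adjusted p = 0.00323). The DNA repair nuclease gene Mre11a, on the other side of Gpr83, had a difference of -0.14 ± 0.052 (adjusted p = 0.16), and Ankrd49 and Hephl1 had differences of 0.0042 and 0.034. Over the 3 protein-coding genes on each side of every one of the 8 genes, 37 neighbours were measured, of which 3 were called higher and 2 lower, with a median difference of -0.017. Among all genes, 5.94% were called higher and 2.79% lower. These neighbours were looked up after the values of the 8 genes had been seen.

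**Figure D2:**
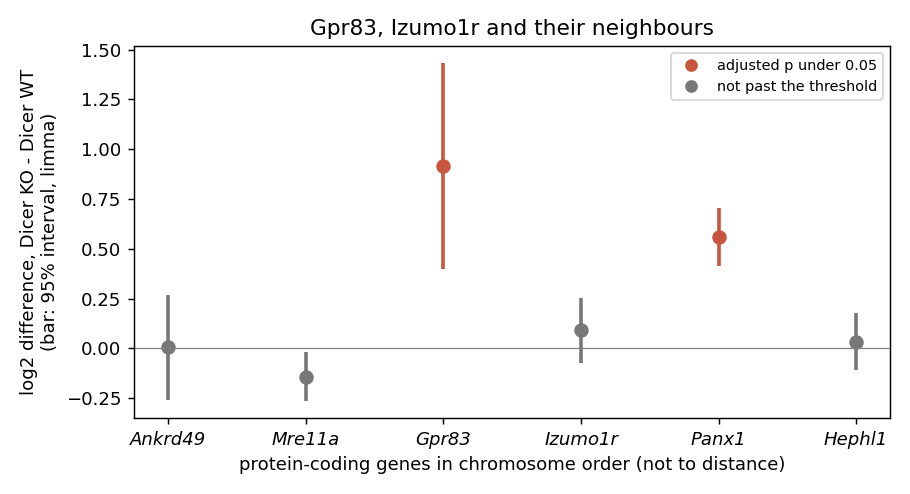
Differences between genotypes in log2 units (vertical axis, positive where Dicer KO is higher, bars give the 95% interval of limma) for Gpr83, Izumo1r and the flanking protein-coding genes of chromosome 9, in chromosome order and not to distance. Gpr83 (0.92) and Panx1 (0.56) passed the threshold, and Izumo1r (0.089) between them did not.

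Nrp1 read -0.10, 0.25 and -0.025 in Dicer WT and 0.026, 0.025 and -0.052 in Dicer KO. The KO arrays were close together and lay within the spread of the WT arrays, of which Dicer WT 2 was high. The difference was -0.044 ± 0.093 (95% interval -0.26 to 0.18, adjusted p = 0.868), and it was 0.062 with Dicer WT 2 left out. Of 13 genes for neuropilin partners and ligands, such as plexins, semaphorins and VEGF genes, 0 passed the test in limma and 0 had an unadjusted p under 0.05 (median difference -0.012). The lowest p among them was that of Sema4a, a semaphorin that binds neuropilin 1 on regulatory T cells (-0.17 ± 0.073, adjusted p = 0.234), whose arrays did not overlap.

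Lrrc32 read 0.10, 0.0030 and -0.0030 in Dicer WT and -0.063, -0.18 and 0.15 in Dicer KO. The KO arrays spread on both sides of the WT arrays, with Dicer KO 3 the highest of all 6. The difference was -0.067 ± 0.088 (95% interval -0.27 to 0.14, adjusted p = 0.76). Around GARP, 1 of 9 genes for latent TGF-beta, its carriers and activators was higher and 0 were lower, with a median difference of 0.060. The shares over all genes were 5.94% higher and 2.79% lower. With Dicer WT 3 or Dicer KO 3 left out, 2 of the 9 were called, and with array weights 4. The one higher was Itgav, the integrin chain that pairs with beta chains to release TGF-beta from its latent form. Itgav read -0.35, -0.29 and -0.43 in Dicer WT and 0.29, 0.45 and 0.36 in Dicer KO, without overlap, and was 1.65-fold higher (0.72 ± 0.062, adjusted p = 0.00134). Its partner on regulatory T cells, Itgb8 (-0.0089 ± 0.067), and the cargo Tgfb1 (-0.029 ± 0.10) did not pass. Of 3 genes for folate receptors and the sperm ligand of Juno, 0 passed in limma and 0 had an unadjusted p under 0.05. Izumo1 had the lowest p (-0.061 ± 0.054, adjusted p = 0.619).

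Of the Ikaros family factors, Ikzf2 read -0.15, 0.099 and -0.37 in Dicer WT and 0.37, 0.26 and -0.099 in Dicer KO. Dicer KO 1 and Dicer KO 2 lay above all WT arrays, but Dicer KO 3 lay below Dicer WT 2, so the genotypes overlapped. The difference was 0.32 ± 0.15 (95% interval -0.041 to 0.68, adjusted p = 0.295). Leaving out Dicer KO 3 gave 0.46 (adjusted p = 0.112), and leaving out Dicer WT 3 gave 0.21 (0.536).

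Ikzf4 read 0.019, 0.0013 and -0.33 in Dicer WT and 0.061, -0.0013 and -0.12 in Dicer KO. Apart from the low Dicer WT 3, the arrays of the genotypes were interleaved. The difference was 0.081 ± 0.10 (95% interval -0.16 to 0.32, adjusted p = 0.75), and it was -0.031 with Dicer WT 3 left out. Ikzf2 minus Ikzf4 on the same array differed by 0.24 between genotypes, with an exact two-sided permutation p = 0.2 (0.3 after adjustment over the 3 pairs). Of the 3 remaining family members, Ikzf1, which encodes Ikaros and is expressed throughout lymphocytes, was higher (0.36 ± 0.076, adjusted p = 0.0318), while Ikzf3 (-0.15 ± 0.25) and Ikzf5 (0.20 ± 0.081) did not pass. All 3 lie in the higher level class, of whose genes 20.2% were called higher. Ikzf2 and Ikzf4 lie outside it, where 3.16% were. When 1 array was left out, Ikzf1 was called if that array was Dicer KO 3 and missed the threshold in the other 5 fits (0.0679 to 0.125). It also missed it with array medians subtracted in each level class (adjusted p = 0.0639).

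Of the intracellular genes, Capg read -0.38, -0.46 and -0.23 in Dicer WT and 0.23, 0.39 and 0.61 in Dicer KO. Every KO array lay above every WT array, and the gap between genotypes exceeded the range within each. Capg was 1.70-fold higher in Dicer KO (0.76 ± 0.11, 95% interval 0.52 to 1.01, adjusted p = 0.00676). It passed the threshold whichever of the 6 arrays was left out, with differences of 0.66 to 0.85 (adjusted p 0.00863 to 0.0347). Capg minus Gpr83 differed by -0.15 between genotypes, with an exact two-sided permutation p = 0.8 (0.8 adjusted). With 3 against 3 arrays this test cannot give less than 0.1, so it could not order these genes by size.

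Among 6 relatives of Capg in the gelsolin family of actin-binding proteins, 2 were higher and 1 was lower, beside 5.94% higher and 2.79% lower of all genes. Of the 6, Flii alone lies in the higher level class, of whose genes 20.2% were called higher. Gelsolin itself (Gsn) read -0.46, -0.35 and -0.24 in Dicer WT and 0.24, 0.42 and 0.42 in Dicer KO, and was 1.64-fold higher (0.71 ± 0.079, adjusted p = 0.00328). Flii, which encodes the flightless homologue, was higher by 0.37 ± 0.056 (adjusted p = 0.00947), and supervillin (Svil) was lower (-0.34 ± 0.056, adjusted p = 0.0123). The call of Svil ended when Dicer WT 1 (adjusted p = 0.0573) or Dicer KO 2 (0.0522) was left out. The family's median difference was 0.086.

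Capg is also expressed in macrophages, and 12 myeloid markers were therefore set beside it. Of these, 3 were higher and 0 lower: Mpeg1 (0.96 ± 0.10), Lyz2 (0.69 ± 0.12) and Ctss (0.66 ± 0.054). Among all genes, 5.94% were called higher. At an unadjusted p under 0.05, 4 of the 12 were higher and 1 lower, beside 2412 higher and 1873 lower of all 19935 genes. Of the 12 differences, 6 were positive and 6 negative. Lyz2 missed the threshold with Dicer WT 1 (adjusted p = 0.0654) or Dicer KO 2 (0.0699) left out. The list median ran from -0.045 to 0.0061 over the Dicer WT arrays and from -0.0041 to 0.077 over the Dicer KO arrays. Of the uncalled markers, Csf1r, the receptor of macrophage colony-stimulating factor, and Adgre1, a macrophage surface antigen, had differences of 0.053 ± 0.059 (adjusted p = 0.71) and -0.021 ± 0.047 (0.872). Cybb (0.46 ± 0.185), Cd68 (-0.25 ± 0.11) and S100a9 (-0.16 ± 0.057) also did not pass (adjusted p 0.162 to 0.253), although their arrays did not overlap. Whether any marker was at 0 cannot be read from centred values, and the part of myeloid cells in the result for Capg was not tested.

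Swap70 read -0.17, 0.15 and -0.19 in Dicer WT and 0.0036, 0.043 and -0.0036 in Dicer KO. The WT arrays fell on both sides of the KO arrays, which were close together. The difference was 0.086 ± 0.093 (95% interval -0.13 to 0.30, adjusted p = 0.699). It moved from 0.024 with Dicer WT 3 left out, and 0.038 with Dicer WT 1 left out, to 0.19 with Dicer WT 2 left out. B cell markers were likewise highest in Dicer WT 2 among the WT arrays: the median of 15 of them was -0.56, 0.016 and -0.27 in Dicer WT and 0.11, 0.049 and 0.093 in Dicer KO. All 15 differences were positive, with a median of 0.33, 9 had an unadjusted p under 0.05 and 1 was called, that of Bank1, a B cell scaffold protein (0.71 ± 0.11, adjusted p = 0.00975). Of all 19935 genes, 9016 had positive differences, 2412 were higher at an unadjusted p under 0.05, and 5.94% were called higher. With Dicer WT 2 left out, 6 of the 15 were called, and with Dicer KO 2 left out 0 (Bank1 adjusted p = 0.0515). With both Dicer WT 1 and Dicer WT 3 left out, the WT arrays of lower B cell markers, the difference of Swap70 was -0.13, that of Capg 0.87 (adjusted p = 0.0866), that of Gpr83 0.77 (0.233) and that of Ikzf2 0.079. That fit has Dicer WT 2 as its lone WT array, which is assumed to vary like the KO arrays, and it calls 213 genes in all. The part of B cells in these values was not tested.

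Of 6 genes that encode the relative Def6, Vav exchange factors and Rac GTPases, 3 were higher and 0 lower, with a median difference of 0.21. Of the 6, 4 lie in the higher level class, of whose genes 20.2% were called higher, beside 5.94% of all genes. The called ones were Rac1 (0.58 ± 0.061, adjusted p = 0.00273) and Rac2 (0.24 ± 0.055, adjusted p = 0.0399), both of that class, and, outside it, the exchange factor Vav2 (0.42 ± 0.062, adjusted p = 0.00833). Rac2 missed the threshold whichever array was left out (adjusted p 0.0673 to 0.147) and with array medians subtracted in each level class (0.132). Def6, the closest relative of Swap70, had a difference of 0.10 ± 0.054 (adjusted p = 0.361).

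Foxp3 itself did not pass the test. It read 0.082, -0.061 and -0.27 in Dicer WT and 0.061, -0.11 and 0.17 in Dicer KO, a difference of 0.12 ± 0.11 (95% interval -0.13 to 0.37, adjusted p = 0.605). Its arrays overlapped, Dicer WT 3 being the lowest and Dicer KO 3 the highest. The difference was 0.030 with Dicer WT 3 left out, 0.058 with Dicer KO 3 left out, 0.21 with Dicer WT 1 left out and 0.20 with Dicer KO 2 left out, and 0.016 with array weights, and it passed the test in none of these fits (adjusted p 0.386 to 0.949). Il2ra, the high-affinity IL-2 receptor chain, read -0.077, -0.0051 and -0.042 in Dicer WT and 0.012, 0.083 and 0.0051 in Dicer KO. Its difference was 0.075 ± 0.050 (adjusted p = 0.475), although the arrays did not overlap. The test of Foxp3 does not show that the genotypes held the same share of regulatory T cells.

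Of 30 other regulatory T cell genes, with Foxp3 and Il2ra among them, 3 were higher in Dicer KO and 0 lower, and the median difference was 0.068. At an unadjusted p under 0.05, 7 were higher and 1 lower, beside 2412 higher and 1873 lower of all 19935 genes. The called genes were the extracellular matrix gene Ecm1 (0.57 ± 0.073, adjusted p = 0.0052), the costimulatory receptor gene Tnfrsf9 (0.40 ± 0.074, adjusted p = 0.0186) and the MAP kinase phosphatase gene Dusp4 (0.41 ± 0.097, adjusted p = 0.0455). Ecm1 read -0.22, -0.35 and -0.21 in Dicer WT and 0.21, 0.29 and 0.43 in Dicer KO, and was called whichever array was left out. Dusp4 was called with Dicer KO 2 left out and missed the threshold with any other array left out (0.0567 to 0.146). Tnfrsf9 missed it with Dicer WT 1, with Dicer KO 2 and with Dicer KO 3 left out (0.0522 to 0.0849). The 3 called of 30 stand beside the 5.94% called higher among all genes.

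**Figure D3:**
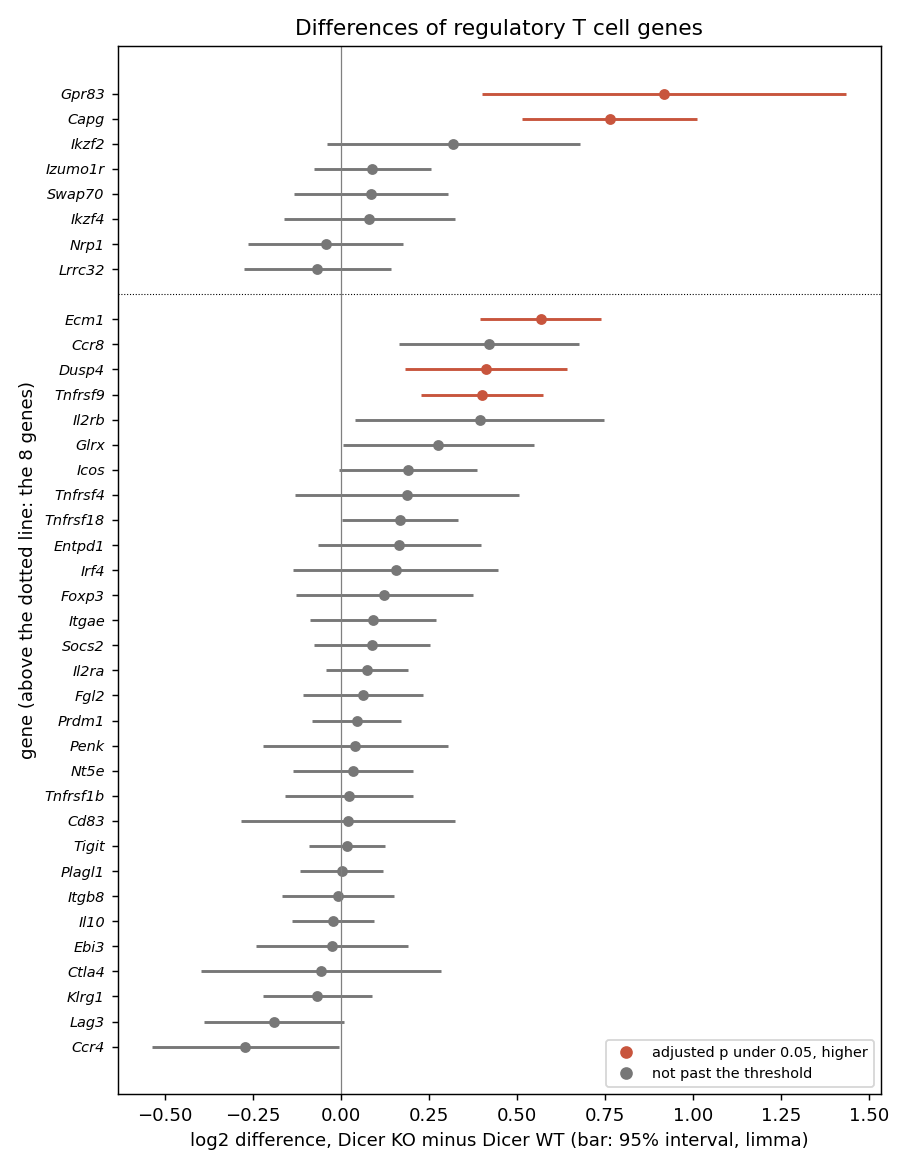
Differences between genotypes in log2 units (horizontal axis, positive where Dicer KO is higher) with the 95% interval of limma for the 8 genes, above the dotted line, and for 30 other regulatory T cell genes, below it. Red points passed an adjusted p of 0.05: Gpr83 and Capg above the line, and Ecm1, Dusp4 and Tnfrsf9 below it.

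Genes that are usually lower in regulatory than in conventional CD4 T cells were set beside the 8. Of 7 of them, 2 were higher and 0 lower, all 7 differences were positive and the median was 0.31. The called ones were Igfbp4, which encodes an insulin-like growth factor binding protein (1.01 ± 0.066, adjusted p = 0.00074), and the phosphodiesterase gene Pde3b (1.08 ± 0.20, adjusted p = 0.0191). Pde3b read -0.36, -0.24 and -0.45 in Dicer WT and 0.86, 1.09 and 0.24 in Dicer KO, and it was called with Dicer WT 3 or Dicer KO 3 left out but not with any other array left out (0.0561 to 0.0739). Dicer WT 3 was the lowest array for 6 of the 7. All 7 belong to the higher level class, of whose genes 20.2% were called higher, in contrast to the 8 regulatory T cell genes.

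Of 12 transcription factors that act with or on Foxp3, 4 were higher and 0 lower, with a median difference of 0.20. Of the 12, 11 lie in the higher level class, of whose genes 20.2% were called higher, so this count on few genes is not set apart from genes of that class. Gata3, which regulatory T cells use in inflamed tissue and which also directs Th2 cells, was 1.63-fold higher (0.71 ± 0.062, adjusted p = 0.00145). The repressor Bach2 (0.44 ± 0.075, adjusted p = 0.0147), Nfatc2 (0.34 ± 0.074, adjusted p = 0.0341) and the IL-2 signal transducer Stat5b (0.33 ± 0.067, adjusted p = 0.0281) were the others. Of these calls, 1 was left with Dicer WT 1 left out, 2 with Dicer WT 2 and 1 with Dicer KO 2. Stat5b also missed the threshold with array medians subtracted in each level class (adjusted p = 0.0761).

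Dicer WT 3 was the lowest of the 6 arrays for 4 of the 8 genes (Ikzf2, Ikzf4, Gpr83 and Swap70), against 20.5% of all genes and 6 of the 30 other regulatory T cell genes. The median over the 8 genes was -0.12, 0.0021 and -0.21 in Dicer WT and 0.043, 0.062 and 0.046 in Dicer KO. These medians were thus close together over the KO arrays and spread over the WT arrays. For single genes, the standard deviation was larger in Dicer KO for Capg (0.19 against 0.12), Lrrc32 (0.17 against 0.0605) and Ikzf2 (0.246 against 0.234). It was larger in Dicer WT for the rest of the 8. The median over the 30 other genes was -0.064, -0.046 and -0.019 in Dicer WT and 0.013, 0.039 and 0.078 in Dicer KO.

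**Figure D4:**
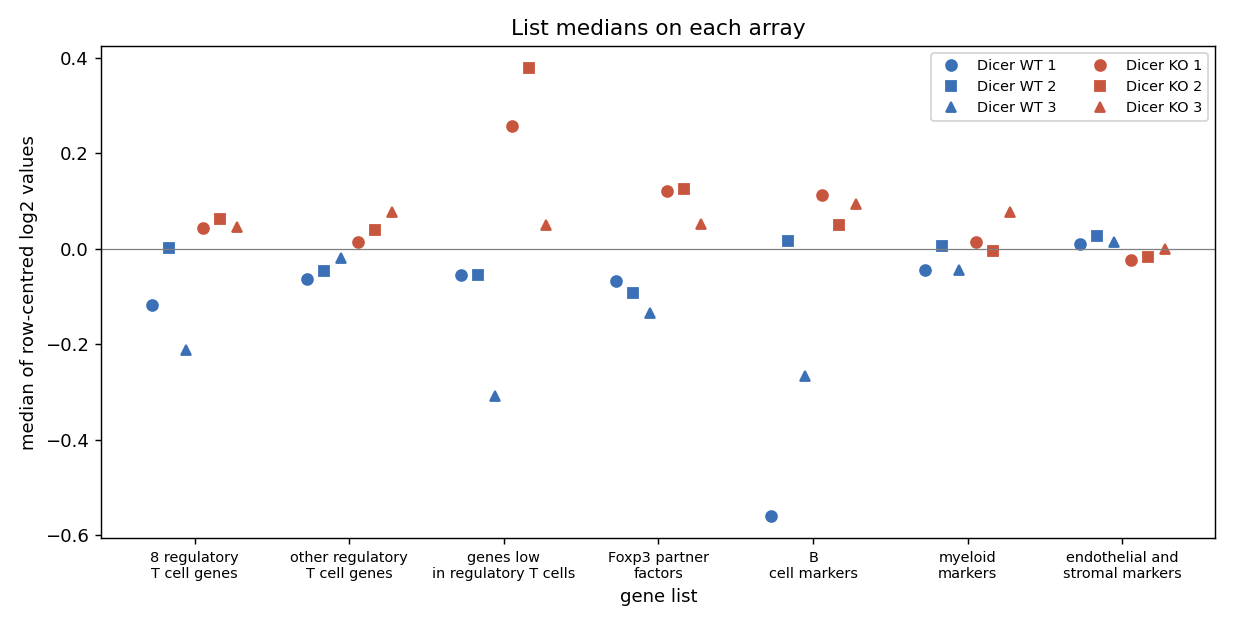
Median of the row-centred log2 values (vertical axis) over each of 7 gene lists on each of the 6 arrays; marker shapes give the replicate number. The 8 regulatory T cell genes are lowest in Dicer WT 3 (-0.21) and B cell markers in Dicer WT 1 (-0.56), while endothelial and stromal markers stay between -0.023 and 0.028.

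Other cells that can carry some of the 8 genes were compared in the same way. Their counts stand beside 5.94% called higher and 2.79% called lower among all genes. Nrp1 and Lrrc32 are expressed by endothelium, and Nrp1 by plasmacytoid dendritic cells. Of 11 endothelial and stromal markers, 1 was higher, the adhesion molecule gene Pecam1 (0.75 ± 0.067, adjusted p = 0.00158), which some T cells also express, while the endothelial genes Cdh5 (-0.049 ± 0.062) and Kdr (-0.027 ± 0.057) did not pass. Pecam1 lies in the higher level class, of whose genes 20.2% were called higher. Of 6 plasmacytoid dendritic cell markers, Ly6d was higher (0.38 ± 0.076) and Pacsin1 lower (-0.74 ± 0.11), and the defining Siglech did not pass (-0.13 ± 0.067, adjusted p = 0.316). Ly6d kept its call with Dicer WT 2 left out and lost it with any other array left out (adjusted p 0.0549 to 0.0895). Lrrc32 is also found on platelets. Of 5 platelet markers, Itgb3 was 2.51-fold higher (1.33 ± 0.080, adjusted p = 0.00054), while Pf4 (-0.024 ± 0.048) and Ppbp (-0.017 ± 0.049) did not pass. The beta chain encoded by Itgb3 pairs with the product of Itgav. Among 7 markers of NK cells, 2 of CD8 T cells, 5 of plasma cells and 8 of dendritic cells, 0 passed the test in limma. At an unadjusted p under 0.05 there were 1 of NK cells (higher), 1 of CD8 T cells (lower), 1 of plasma cells (higher) and 0 of dendritic cells. Of all 19935 genes, 2412 were higher and 1873 lower at that p. Of the 7 NK cell markers, 1 was called with Dicer KO 3 left out or with array weights. Of the 2 CD8 T cell markers, 1 was called with Dicer KO 1 left out and with array weights. It was also called with the higher level class alone and with array medians subtracted in each level class. Cd8b1, of the higher level class, had a difference of -0.26 ± 0.066 (adjusted p = 0.0567), and its arrays did not overlap. The difference of Cd8a was -0.089 ± 0.18 (adjusted p = 0.857), and its arrays overlapped. The part of these cells in the values of Nrp1 and Lrrc32 was not tested.

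The genes nearest to Gpr83 over the 6 arrays, out of 18286 compared by the root mean square of the array-by-array difference, were Neb (0.15 log2 units), Arhgap11a (0.16) and the cyclin gene Ccnd2 (0.20). Nearest to Capg were the endoplasmic reticulum chaperone gene Calr (0.056), Pros1, which encodes protein S (0.061), and Kbtbd11 (0.077). Capg thus had closer matches than Gpr83. Ccnd2 differed by 0.93 ± 0.083 between genotypes and Calr by 0.75 ± 0.089. Both were picked for values near those of Gpr83 or Capg on the same arrays, so like differences follow from that choice.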

How the data were processed

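RNA was hybridised to 1-colour Affymetrix MoGene 1.0 ST arrays after biotin labelling, per the labels' protocols. The values are log2 values that the authors deposited for 28815 rows on 6 arrays. The submitters' processing notes name MAS5, without a role, and neither normalization nor log base is given in the sources used here. Every row was found to be centred on its median (largest absolute row median 5e-07). Symbols came from the platform annotation and were updated by gene ID to RefSeq GRCm38.p6. Of the rows, 21780 had 1 symbol and gave 19935 genes, and the 998 genes on several rows were averaged.

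Dicer KO was compared with Dicer WT over all genes by lmFit and eBayes of limma 3.58.1 under R 4.3.3, with 3 arrays per genotype. P-values were adjusted by Benjamini-Hochberg over the 19935 genes, and those under 0.05 were called. The procedure was run on simulated data with independent noise for each gene. Shifts shared by many genes of an array were not simulated, so that run gives no error rate for these data. The level class is the binary step of the stored numbers (8 log units or more on all arrays, or less), and can be wrong for a single row. The members and lists were chosen with earlier results of these data known. Itgb8, Kdr and Irf4 each stand in 2 lists. Named genes are the 8 genes, Foxp3, Il2ra, the called members of each list or those of lowest p, and the 3 nearest genes of members with a difference of at least 0.5. Genes named outside this rule (neighbours, uncalled markers and relatives) were chosen after their values were seen. No filter on low values was possible on centred values. Alternatives were array scaling, variance models, the choice of rows, the level class, the replicate number as a block and leaving out arrays. The number of arrays limits the precision.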

Additional observations from a re-analysis of the deposited data

How the results depend on the processing

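The calls of Gpr83 and Capg held when array medians were subtracted, after quantile normalization, with array weights, with robust eBayes, with the median of a gene's rows or the row of lowest spread, and with array medians subtracted within level classes (an alternative added after seeing the data). Of the other lists, the Ikaros family kept no call (0 in place of 1) with array medians subtracted within level classes. With the replicate number as a replicate block, 1 of the 8 genes was called, because Gpr83 missed the threshold (adjusted p = 0.0583), 5 of the other regulatory T cell genes were called higher in place of 3, and 2063 genes were called in all. In that fit the standard error of Ikzf2 was 0.082 in place of 0.15, and Ikzf2 was not called (adjusted p = 0.0672). The labels do not say that the numbers pair the samples. The deviations of same-numbered arrays correlated at 0.274, -0.0763 and 0.3, and those of unlike-numbered arrays at -0.366 to 0.227. Whether the samples are paired cannot be told from these values. With any 1 array left out, 1 to 2 of the 8 genes were called, 1 to 2 higher, and 8 to 15 of the 88 genes of the other regulatory T cell and pathway lists in place of 17. Of the 77 cell type markers counted apart from these lists, 8 to 16 were called in place of 11. Over all genes, 729 to 1597 were called (553 to 1070 higher, 176 to 527 lower) in place of 1741. Without both Dicer WT 1 and Dicer WT 3, added after seeing the data, 0 of the 8 genes, 1 of the 88 and 3 of the 77 markers were called, and 213 of all genes, 192 higher and 21 lower. With array weights, 897 genes were lower. None of the 8 genes is in the higher level class, so that setting gives no value for them; alone, it gave 1015 called genes, 180 of them lower, and 11 of the 31 such genes among the 88, from fewer genes tested. Differences near 0 changed sign: that of Ikzf4 was -0.031 to 0.14 with 1 array left out (negative without Dicer WT 3) and -0.022 without both WT arrays, that of Lrrc32 -0.16 to 0.0080 (positive without Dicer KO 2), that of Nrp1 -0.11 to 0.062 (positive without Dicer WT 2), and that of Swap70 -0.13 without both WT arrays. Except where fewer arrays or genes were used, the cause was not tested. With 3 arrays a genotype, differences inside the printed intervals could not be resolved.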
